A study of Mus musculus with 30 samples.

Results

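The genes described here encode the machinery that divides a cell in mitosis: cyclins and kinases, centromere and kinetochore proteins, the spindle checkpoint, condensin, spindle motors and the proteins of cytokinesis. The list names 60 genes of mitosis and chromosome segregation, and each was read on the probe set that carries exactly 1 gene symbol and has the highest mean over the arrays. By this rule 56 genes were measured, of 18820 genes covered by such probe sets. Cenpk, Nusap1 and Kif20a are carried only by probe sets with several genes, and for Ccnb1 no probe set is listed, so these 4 have no values here.

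Livers of male mice of about 8 weeks were profiled on 30 Affymetrix gene arrays, 1 liver per array. CREB3L3-/- mice had been backcrossed to C57BL/6, PPARα-/- mice came from a C57BL/6J colony, and combined PPARα/CREB3L3-/- mice were bred from both lines. Each of these knockouts, and wild-type (WT) mice, either ate a ketogenic diet for 4 days and were killed fed, or were fasted for 16 h after standard chow. There were 4 livers per group and 3 in both PPARα-/- groups. Both deletions are in every cell of the body, so they are not restricted to hepatocytes, and 1 knockout allele was used for each gene.

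CREB3L3 is a transcription factor of the endoplasmic reticulum membrane in liver and gut that is released by cleavage. PPARα is the nuclear receptor for fatty acids that drives fat oxidation and ketone production in the fasted liver. Most hepatocytes of an adult mouse rest outside the cell cycle and transcribe few mitotic genes. When a cell cycles, these genes are largely transcribed together in G2 and mitosis, and some of their proteins are destroyed as mitosis ends.

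The arrays had medians between 4.22 and 4.38 on the log2 scale of the deposited values, which is the scale of every level below. The Creb3l3 signal was 4.29 to 5.36 in the livers that lack the gene, against 9.49 to 11.28 in the other livers, with no overlap. The Ppara signal was 6.62 to 7.62 in combined knockout livers and 7.22 to 7.95 in PPARα-/- livers on the diet, against 10.37 to 10.54 in WT livers on the diet. In the fast it was 7.25 to 9.09 in combined knockout and 8.96 to 9.35 in PPARα-/- livers, against 10.08 to 10.41 in WT livers, so a signal remained. CREB3L3-/- livers, whose Ppara gene is intact, had a Ppara signal of 8.01 to 8.99 on the diet and 9.51 to 10.03 in the fast. Hepatocyte markers such as Alb and Ttr were bright in every group, with list means of 11.35 to 12.40 on the diet.

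On the ketogenic diet the mitotic genes were higher in CREB3L3-/- livers than in WT livers almost without exception. Of the 56 genes, 55 were higher and 0 lower in a limma fit of all arrays, which called a gene where P was under 0.001 and the change exceeded 1.2-fold. Over all 18820 genes, 16.7% were higher and 11.9% lower by the same rule. The median log2 fold change of the mitotic genes was 3.54, which is 11.6-fold, and that of all genes was -0.05. In 54 of them the change was beyond 2-fold and in 38 beyond 8-fold. For all 56 genes the lowest CREB3L3-/- liver lay above the highest WT liver of the diet, against 20.3% of all genes. For 55 genes, Spc24 being the exception, it lay above every other liver of the study, against 9.41% of all genes. In whole liver, a change in the number of cycling cells and a change in RNA per cell cannot be told apart.

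**Figure D1:**
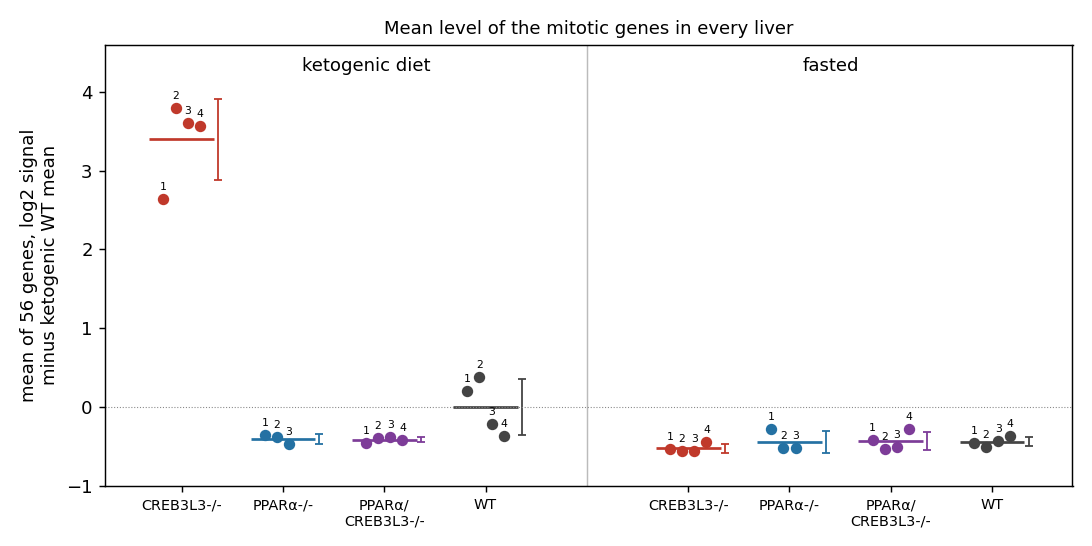
Mean log2 signal of the 56 mitotic genes in each liver (numbered points), as the difference from the mean of the ketogenic WT livers, with ketogenic groups left and fasted groups right; lines are group means and bars the SD over 3 or 4 livers. The ketogenic CREB3L3-/- livers sit 2.64 to 3.79 above the WT mean, and livers 1 and 2 of ketogenic WT sit above livers 3 and 4.

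The rise in CREB3L3-/- livers on the diet ran through every role. The genes of mitotic entry rose as a block: all 4 measured were higher, with log2 changes of 3.47 to 4.35. Cdk1, the kinase that drives entry into mitosis, was 6.83, 7.94, 8.00 and 7.67 in CREB3L3-/- livers, against 3.74, 4.37, 3.69 and 3.80 in WT livers. The lowest knockout liver was above the highest WT liver by a wide margin. The log2 change was 3.71 with a standard error (SE) of 0.23, or 13.1-fold, with an adjusted p of 1.2e-12 over all probe sets. Ccna2, the cyclin that works in S phase and early mitosis, was 7.98, 9.36, 9.03 and 8.91 in CREB3L3-/- livers, against 5.08, 5.37, 3.94 and 3.51 in WT livers. Livers 1 and 2 of WT were themselves more than 1 log2 unit above livers 3 and 4, and the change was 4.35 ± 0.30 (SE).

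The 5 mitotic kinases and partners rose by 3.57 to 4.59. Plk1, which acts at centrosomes, kinetochores and the midbody, was 8.06, 9.83, 9.33 and 9.28 in CREB3L3-/- livers, against 4.33, 5.09, 4.65 and 4.07 in WT livers, a difference of 4.59 ± 0.29. Liver 1 of the knockout was the lowest of its group and still far above WT. Aurka and its activator Tpx2 rose by 3.90 and 4.26. Melk and Pbk, kinases of dividing cells, rose by 3.57 and 3.57.

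The chromosomal passenger complex places Aurora B at centromeres and later at the midzone, and its 4 members rose by 2.67 to 3.89. Aurkb, its kinase, was 7.34, 8.12, 7.83 and 7.80 in CREB3L3-/- livers, against 4.23, 4.56, 3.61 and 3.13 in WT livers (3.89 ± 0.25). Birc5, which encodes survivin, was 6.36, 7.30, 7.16 and 7.17 in CREB3L3-/- livers, against 3.91, 4.23, 3.35 and 3.26 in WT livers (3.31 ± 0.20). In both genes the groups were separated by more than 2 log2 units. The scaffold Incenp and the borealin gene Cdca8 rose less, by 2.67 and 2.75.

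Centromere and kinetochore genes were higher with 1 exception and differed widely in size. The centromeric histone gene Cenpa was 6.76, 7.72, 7.14 and 7.60 in CREB3L3-/- livers, against 5.28, 5.42, 5.28 and 5.21 in WT livers (2.01 ± 0.23), and Cenpi and Cenpn rose by 2.94 and 2.75. Of the 6 outer kinetochore genes 5 rose. Cenpe, a kinesin that moves chromosomes to the spindle equator, was 6.25, 7.33, 7.09 and 7.08 in CREB3L3-/- livers, against 3.39, 3.38, 2.76 and 2.58 in WT livers (3.91 ± 0.19). Its knockout and WT values lay almost 3 log2 units apart at the closest. Nuf2 and Cenpf rose by 3.95 and 3.54.

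The Ndc80 complex is a rod of 4 proteins that binds spindle microtubules with the Ndc80 and Nuf2 end and the kinetochore with the Spc24 and Spc25 end, and its genes behaved unlike each other. Ndc80 was 5.43, 6.19, 6.50 and 6.16 in CREB3L3-/- livers, against 3.45, 3.62, 3.85 and 3.38 in WT livers (2.50 ± 0.17). Spc25 was 6.66, 7.48, 7.48 and 7.63 in CREB3L3-/- livers, against 6.15, 6.19, 5.63 and 5.52 in WT livers (1.44 ± 0.25). Spc24 was 7.05, 7.56, 7.09 and 7.81 in CREB3L3-/- livers, against 6.37, 6.61, 6.91 and 6.81 in WT livers. Its log2 difference of 0.70 ± 0.19 (adjusted p = 0.0058) was the smallest of the 56, and it missed the P criterion although the groups do not overlap. Spc24 was well above the array medians in every liver of the study.

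In the spindle checkpoint, which holds anaphase until all kinetochores are attached, all 5 genes were higher. Bub1, its kinase, was 5.93, 7.52, 7.23 and 7.22 in CREB3L3-/- livers, against 2.90, 3.04, 2.51 and 2.49 in WT livers (4.24 ± 0.22). Bub3, the partner that brings Bub1 and Bub1b to kinetochores, was 8.20, 8.62, 8.48 and 8.47 in CREB3L3-/- livers, against 7.64, 7.64, 7.52 and 7.72 in WT livers. Its change of 0.81 ± 0.09 was 1.75-fold, small in size but precise (adjusted p = 2.1e-08). Ttk, Mad2l1 and Bub1b rose by 3.87, 2.96 and 2.94.

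The 3 genes of the anaphase trigger and of cohesion rose by 2.15 to 3.52. Cdc20, the activator of the anaphase-promoting complex, was 6.56, 8.19, 7.38 and 7.51 in CREB3L3-/- livers, against 3.98, 4.52, 3.68 and 3.37 in WT livers (3.52 ± 0.25). Espl1, which encodes separase, the protease that cuts cohesin, was 4.23, 5.38, 4.99 and 4.93 in CREB3L3-/- livers, against 3.02, 2.76, 2.61 and 2.53 in WT livers (2.15 ± 0.19). Cdca5, the sororin gene, rose by 3.25.

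Of the genes for chromosome structure, all 9 were higher, by 1.94 to 4.49. Mki67, the proliferation marker that coats mitotic chromosomes, was 8.38, 9.51, 9.17 and 9.37 in CREB3L3-/- livers, against 5.64, 5.64, 3.82 and 3.38 in WT livers (4.49 ± 0.37). Top2a, the topoisomerase that untangles sister chromatids, was 8.06 in liver 1 and 8.95 to 9.17 in livers 2 to 4 of CREB3L3-/- mice, against 4.81, 5.32, 4.11 and 3.39 in WT livers (4.39 ± 0.27). In both, WT livers 1 and 2 were clearly above WT livers 3 and 4, and the knockout livers were far above all 4. Within condensin, the ring that compacts chromosomes, the condensin I subunit Ncapg was 6.03, 6.99, 6.84 and 6.90 in CREB3L3-/- livers, against 3.34, 4.01, 2.91 and 3.25 in WT livers (3.31 ± 0.19). The core subunit Smc4 was 8.15, 8.95, 8.99 and 8.87 in CREB3L3-/- livers, against 6.97, 7.12, 6.66 and 6.48 in WT livers (1.94 ± 0.15). The changes of the other condensin genes were 3.57 for Ncaph, 3.16 for Ncapg2, 2.78 for Smc2 and 2.64 for Ncapd2, so the regulatory subunit Ncaph stood at the upper end of the complex and Smc4 at the lower. Cdca2, a phosphatase partner on chromosomes, rose by 3.53.

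Spindle motors and spindle assembly genes rose without exception, 7 of 7 kinesins and 3 of 3 assembly factors. Kif11, the motor that pushes the spindle poles apart, was 7.52, 8.74, 8.66 and 8.66 in CREB3L3-/- livers, against 4.72, 4.88, 3.99 and 3.95 in WT livers (4.01 ± 0.23). Kif2c, which depolymerises microtubules at centromeres, was 7.24, 8.53, 8.36 and 8.37 in CREB3L3-/- livers, against 4.12, 4.41, 3.17 and 3.44 in WT livers (4.34 ± 0.23). Kif4, a chromosome-bound motor, was 5.90, 7.31, 7.11 and 7.13 in CREB3L3-/- livers, against 2.57, 2.43, 2.66 and 2.25 in WT livers (4.39 ± 0.19). Liver 1 was the lowest of the knockout livers for all 3 motors. Hmmr, a microtubule-binding protein of the spindle poles, had the largest change of the list. It was 7.25, 8.43, 7.89 and 8.14 in CREB3L3-/- livers, against 3.58, 3.58, 2.74 and 2.45 in WT livers, and the difference of 4.84 ± 0.24 is 28.6-fold. The other kinesins rose by 2.49 (Kif18a) to 3.54 (Kif18b), and Dlgap5 and Aspm by 3.68 and 2.75.

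Genes of cytokinesis, which parts the daughter cells, had the highest role median among the 11 roles, 4.16, and all 7 rose. Anln, the anillin gene of the contractile ring, was 7.32, 8.97, 8.70 and 8.52 in CREB3L3-/- livers, against 3.87, 3.96, 3.50 and 3.37 in WT livers (4.70 ± 0.25). Prc1, which bundles the microtubules of the midzone, was 7.17, 8.18, 7.94 and 8.00 in CREB3L3-/- livers, against 3.65, 4.00, 3.08 and 2.59 in WT livers (4.49 ± 0.22). For both genes the groups were more than 3 log2 units apart at the closest. Racgap1, whose protein joins Kif23 in centralspindlin, was 7.33, 8.39, 7.97 and 8.13 in CREB3L3-/- livers, against 4.37, 4.46, 3.35 and 3.39 in WT livers (4.06 ± 0.23). Cep55, needed for the final abscission, was 5.49, 7.40, 7.16 and 6.95 in CREB3L3-/- livers, against 2.62, 3.02, 2.40 and 2.30 in WT livers (4.16 ± 0.25). Ect2, Kif23 and Kif20b rose by 4.30, 3.50 and 3.47.

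**Figure D2:**
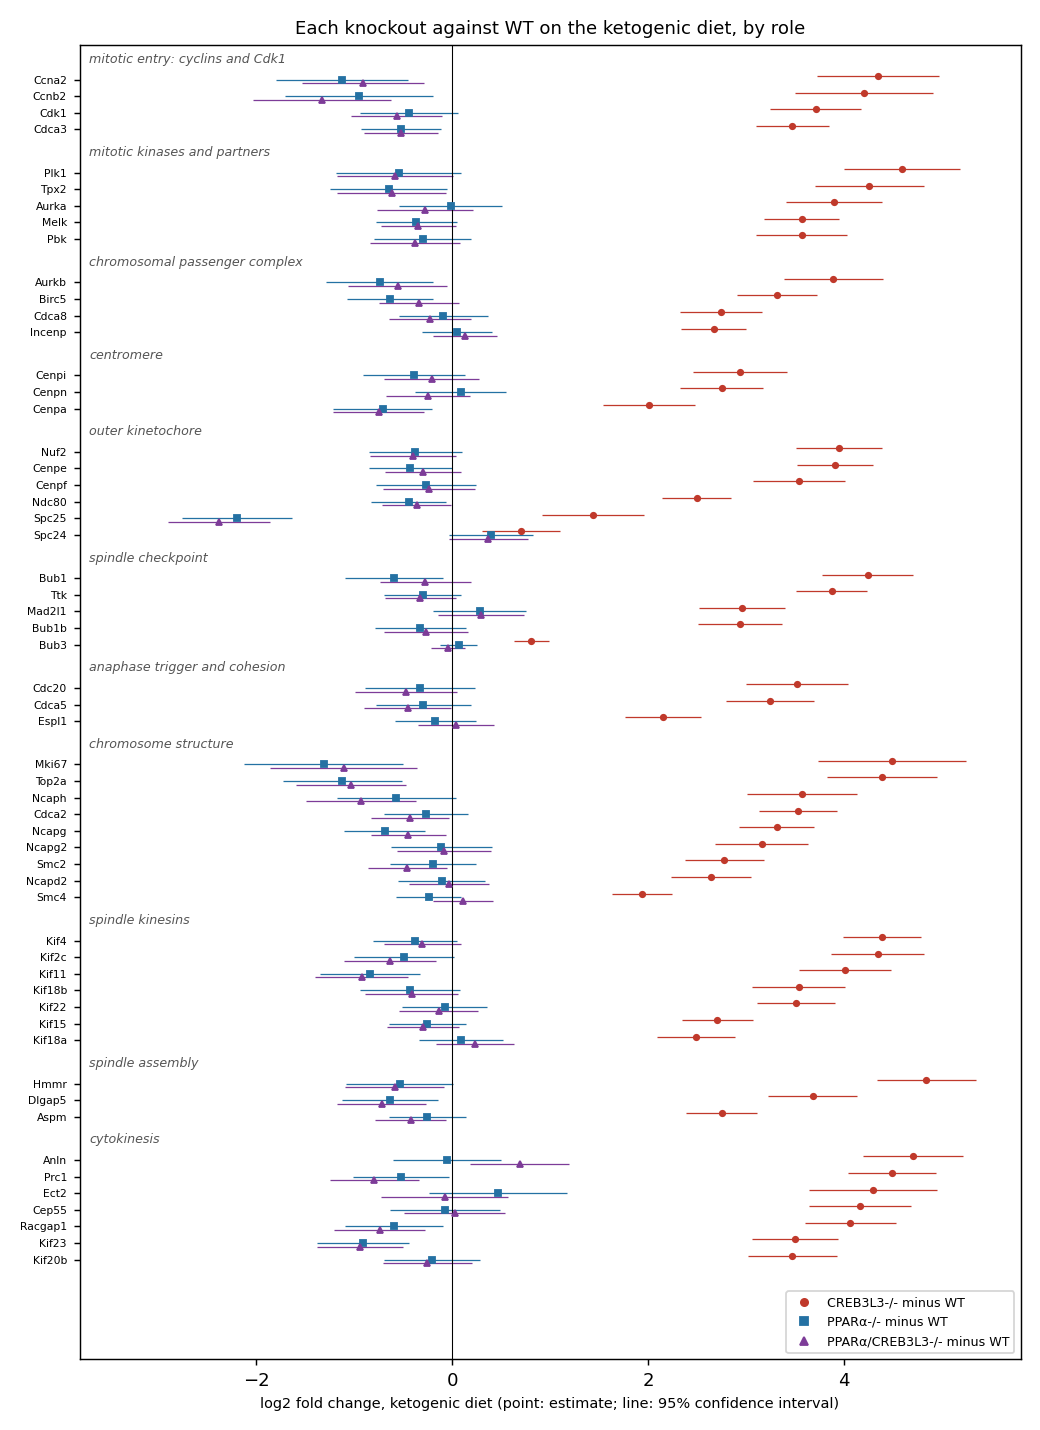
Log2 fold change against ketogenic WT livers for each of the 56 genes by role, in CREB3L3-/- (circles), PPARα-/- (squares) and PPARα/CREB3L3-/- livers (triangles), with 95% confidence intervals from limma. The circles lie between 0.70 and 4.84. Most squares and triangles lie near 0 or below it, and they run from -2.38 for Spc25 to 0.69 for Anln, close to the lowest circle.

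Levels on an array rest on the probe set read, and 6 of the genes have further probe sets with 1 symbol. The dimmer probe sets of Kif11, Mad2l1 and Pbk and the second of Top2a were also called higher in CREB3L3-/- livers on the diet, with smaller changes of 1.03 to 2.19. The dimmer ones of Kif18b (0.02) and Prc1 (0.22) and the third of Top2a (0.34) were not. In ketogenic WT livers 28 of the 56 genes lay below the array median in every liver, and in fasted WT livers 43 did, so the denominators of these fold changes are mostly dim signals. In ketogenic CREB3L3-/- livers 55 genes lay above the array median in every liver.

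Mitotic genes are known for a shared promoter element, the cell cycle genes homology region (CHR, TTTGAA), often found with the CCAAT box (CCAAT). Both were searched on both strands in the RefSeq promoter windows of build GRCm38.p6, which run from 250 bases before to 50 bases after a gene's start. A window was matched for 47 of the 56 genes; none was matched for Pbk, Incenp, Tpx2, Cdca2, Ccna2, Dlgap5, Aurkb, Spc24 and Smc4. TTTGAA was present for 38 of the 47 (80.9%), against 17.3% of the 14749 array genes with a window. It was present for 14.8% of the other genes that were higher in ketogenic CREB3L3-/- livers. CCAAT was present for 33 (70.2%), against 41.9% of the array genes, and both for 30 (63.8%), against 6.94%. Among the matches, 1 CCAAT shares a base with a TTTGAA. For 36 genes a TTTGAA begins within 100 bases before the start or after it. A match describes letters and is neither a bound site nor a cause of the changes. No TTTGAA was in the windows of Birc5, Bub1, Cenpe, Cenpi, Kif18a, Mad2l1, Melk, Ncaph and Nuf2, which rose by 2.49 (Kif18a) to 4.24 (Bub1). The 120 bases before the start are shown for 5 representatives that carry TTTGAA there and rose strongly, and for Bub3 and Spc25, which were among the 5 smallest changes, with every TTTGAA and CCAAT and their complements TTCAAA and ATTGG in capitals.
Cdk1 (chr10:69352913-69353032, minus strand): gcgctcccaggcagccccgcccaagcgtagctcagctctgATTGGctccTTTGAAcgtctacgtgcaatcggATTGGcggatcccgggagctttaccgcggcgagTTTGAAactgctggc
Cdc20 (chr4:118437344-118437463, minus strand): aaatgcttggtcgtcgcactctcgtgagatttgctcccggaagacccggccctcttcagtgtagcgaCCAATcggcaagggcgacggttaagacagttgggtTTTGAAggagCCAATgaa
Top2a (chr11:99024190-99024309, minus strand): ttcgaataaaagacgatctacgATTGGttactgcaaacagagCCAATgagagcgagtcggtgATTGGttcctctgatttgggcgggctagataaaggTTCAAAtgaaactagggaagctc
Kif11 (chr19:37376262-37376381, plus strand): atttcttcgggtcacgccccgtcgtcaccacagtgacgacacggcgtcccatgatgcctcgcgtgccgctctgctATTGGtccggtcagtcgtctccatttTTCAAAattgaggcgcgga
Mki67 (chr7:135716380-135716499, minus strand): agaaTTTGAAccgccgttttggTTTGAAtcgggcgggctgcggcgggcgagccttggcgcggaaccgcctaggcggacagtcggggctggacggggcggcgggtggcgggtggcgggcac
Bub3 (chr7:131560250-131560369, plus strand): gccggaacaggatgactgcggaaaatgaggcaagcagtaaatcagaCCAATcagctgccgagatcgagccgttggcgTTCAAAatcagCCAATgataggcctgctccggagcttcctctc
Spc25 (chr2:69206214-69206333, minus strand): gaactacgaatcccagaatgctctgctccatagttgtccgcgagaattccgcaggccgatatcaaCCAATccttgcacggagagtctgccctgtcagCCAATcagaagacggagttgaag
The Bub3 stretch, which belongs to the first of its RefSeq starts, holds 1 TTTGAA (as TTCAAA) and 2 CCAAT, like those of genes that rose far more. The Spc25 stretch holds 2 CCAAT, and its TTTGAA lies outside the stretch and begins at base 25 counted from the start, so the whole window carries both.

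No such rise was seen in mice that also lacked PPARα. In combined PPARα/CREB3L3-/- livers against CREB3L3-/- livers on the diet, 55 of the 56 genes were lower and 0 higher, against 17.2% and 10.6% of all genes. The median difference was -3.95, and Spc24, at -0.33 ± 0.19 (adjusted p = 0.21), was the gene not called. Hmmr was 2.34, 2.51, 2.39 and 2.77 in combined knockout livers, against 7.25, 8.43, 7.89 and 8.14 in CREB3L3-/- livers (-5.42 ± 0.24). Mki67 was 3.10, 3.71, 3.53 and 3.72 in combined knockout livers, against 8.38, 9.51, 9.17 and 9.37 in CREB3L3-/- livers (-5.59 ± 0.37). No combined knockout liver came within 4 log2 units of the CREB3L3-/- livers for either gene. Markers of some other cells were lower in the same comparison. These were 12 of 14 macrophage, 10 of 12 stellate cell and 7 of 10 sinusoidal endothelium markers, with 0 higher in each list. Of 8 cholangiocyte markers 3 were lower and of 10 neutrophil markers 1, with 0 higher. Of the 12 T and NK cell and 9 B and plasma cell markers 0 were called. Of 5 erythroid markers 1 was higher and 1 lower, and of 11 hepatocyte markers 4 were higher and 0 lower. The mean of the macrophage markers was 6.31 to 6.80 in combined knockout livers, against 7.96 to 8.32 in CREB3L3-/- livers. That of the stellate cell markers was 5.64 to 6.50 in combined knockout livers, against 7.31 to 7.97 in CREB3L3-/- livers. Their part in the difference was not tested.

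Set against PPARα-/- livers on the diet, the combined knockout had 0 of 56 genes called in either direction in the limma fit, where 1.07% of all genes were higher and 2.36% lower. At an unadjusted p under 0.05 there were 2, Anln and Smc4. Anln was 4.22, 4.50, 4.58 and 4.16 in combined knockout livers, against 4.10, 3.41 and 3.35 in PPARα-/- livers (0.74 ± 0.27, adjusted p = 0.14). Smc4 was 6.94, 6.80, 7.16 and 6.77 in combined knockout livers, against 6.61, 6.50 and 6.60 in PPARα-/- livers (0.35 ± 0.16, adjusted p = 0.28). At an adjusted p under 0.05 there were 0, and the share of all genes at the unadjusted threshold was not counted. The 95% intervals of the 56 differences lay between -1.25 and 1.29.

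The difference between the effect of the CREB3L3 deletion without PPARα and its effect with PPARα was tested directly. It was negative and called for 55 of the 56 genes, against 13% of all genes, and positive and called for 0, against 8.2%, with a median of -3.56. It was -4.89 ± 0.36 for Hmmr, -4.76 ± 0.32 for Prc1 and -4.31 ± 0.28 for Kif4. At the other end it was -0.92 ± 0.13 for Bub3 and -1.62 ± 0.37 for Spc25. For Spc24 it was -0.73 ± 0.29 (adjusted p = 0.067) and was not called.

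**Figure D3:**
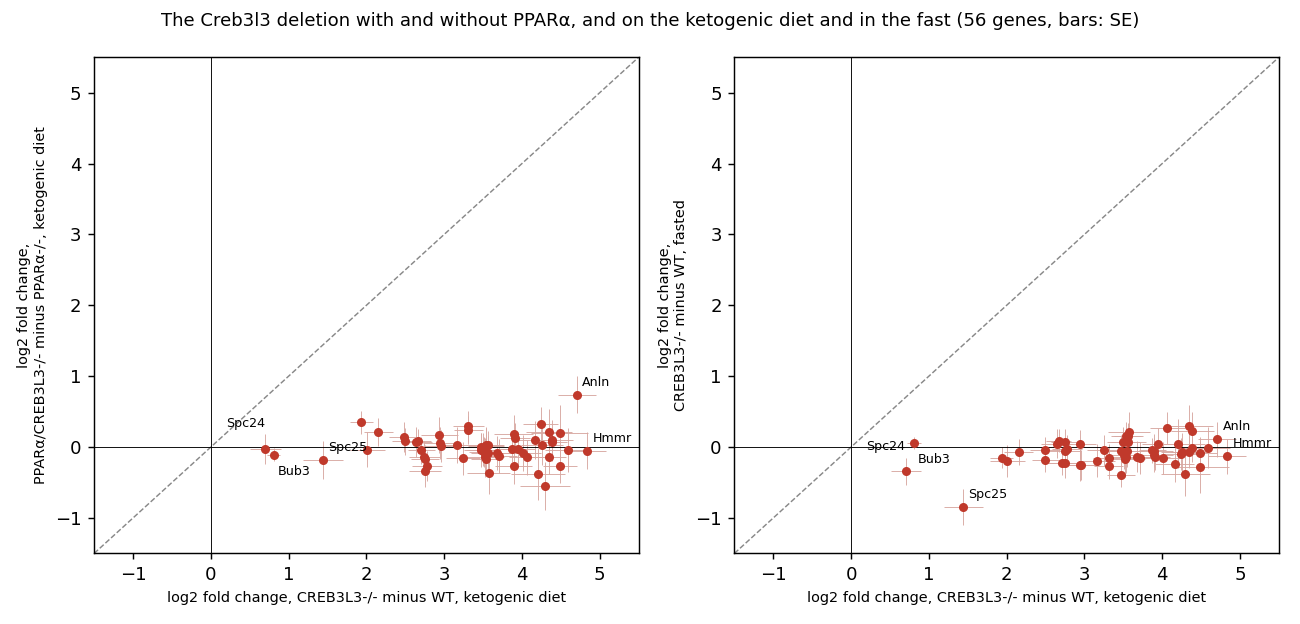
Log2 fold change of each of the 56 genes for the CREB3L3 deletion on the ketogenic diet with PPARα present (horizontal axes), against the same deletion in PPARα-/- mice on the diet (left) and in fasted mice with PPARα (right); bars are SEs and the dashed line marks equal changes. The points lie along 0 on both vertical axes, between -0.55 and 0.74 on the left and between -0.85 and 0.30 on the right.

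Few of the mitotic genes were called against WT livers in mice without PPARα on the diet. The share called lower was near that of all genes. Most differences were negative all the same, 49 of 56 in PPARα-/- livers and 48 of 56 in combined knockout livers. Their medians were -0.37 and -0.37, against -0.006 and -0.012 for all genes. These differences were uneven among the WT livers. The mean over the 56 genes was 4.23 and 4.41 in WT livers 1 and 2, and 3.81 and 3.65 in livers 3 and 4. It was 3.55 to 3.67 in PPARα-/- livers, a range that holds WT liver 4, and 3.57 to 3.64 in combined knockout livers. In PPARα-/- livers 0 genes were higher than in WT livers and 3 lower, against 6.45% and 7.15% of all genes. The lower genes were Spc25 (-2.20 ± 0.27), Kif23 (-0.91 ± 0.23) and Top2a (-1.12 ± 0.29). In combined knockout livers 0 were higher and 5 lower, against 7.44% and 10.3%. These were Spc25 (-2.38), Ccnb2 (-1.33), Top2a (-1.03), Kif23 (-0.94) and Kif11 (-0.92). Anln was the gene whose combined knockout livers all lay above the WT livers (0.69 ± 0.25, adjusted p = 0.046), where 11.9% of all genes did. It was not called.

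These few lower calls changed when single livers of either group were left out. WT livers 1 and 2 of the diet stood above livers 3 and 4 in many of the genes. Mki67, for example, was 5.64 and 5.64 in WT livers 1 and 2 of the diet and 3.82 and 3.38 in livers 3 and 4. For 43 of the 56 genes, WT livers 1 and 2 were both above livers 3 and 4, as for 19.6% of all genes. Markers of some other cells were also higher in WT livers 1 and 2. The mean of the macrophage markers was 7.41 and 7.08 in WT livers 1 and 2, and 6.56 and 6.58 in livers 3 and 4. That of the neutrophil markers was 4.07 and 3.75 in WT livers 1 and 2, and 3.23 and 3.24 in livers 3 and 4. The means of the T and NK cell list and of the B and plasma cell list were higher too. That of the cholangiocyte markers was lower, 3.87 and 3.84 in WT livers 1 and 2, and 4.02 and 3.95 in livers 3 and 4. The stellate cell, sinusoidal endothelium and erythroid means overlapped. The part of these cells in the difference was not tested. Without WT liver 1 or WT liver 2 the PPARα-/- livers had 1 lower gene in each case, which was Spc25. Without WT liver 3 there were 5 and without WT liver 4 there were 7, and without any 1 of the PPARα-/- livers there was 1, again Spc25. The combined knockout had 2 lower genes without WT liver 1, 1 without WT liver 2 and 11 without WT liver 4. Leaving out its own livers 1 to 4 in turn gave 2, 3, 2 and 3, with Spc25 and Kif23 in each.

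Spc25 alone among the 56 genes was lower without PPARα in both regimens. On the diet it was 3.73, 3.84 and 3.45 in PPARα-/- livers and 3.24, 3.43, 3.79 and 3.50 in combined knockout livers, against 6.15, 6.19, 5.63 and 5.52 in WT livers. In the fast it was 4.01, 3.43 and 3.50 in PPARα-/- livers and 3.23, 3.22, 3.22 and 3.73 in combined knockout livers, against 4.98, 4.82, 4.55 and 5.42 in WT livers. Every liver without PPARα was below every WT liver of its regimen. The fasted differences were -1.29 ± 0.27 (adjusted p = 0.0038) and -1.59 ± 0.25 (adjusted p = 8.1e-05). These were the sole calls of the list in those comparisons, where 2.58% and 3.95% of all genes were lower and 3.11% and 5.81% higher.

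In the fast the CREB3L3 deletion called 0 of the 56 genes in the limma fit, against 0.648% of all genes higher and 0.893% lower, and the median difference was -0.07. At an unadjusted p under 0.05 there were 2, Spc25 and Cdca3, both lower, and at an adjusted p under 0.05 there were 0. The share of all genes at that unadjusted threshold was not counted. Spc25 was 3.54, 4.85, 3.73 and 4.25 in fasted CREB3L3-/- livers, against 4.98, 4.82, 4.55 and 5.42 in fasted WT livers, with overlap (-0.85 ± 0.25, adjusted p = 0.099). Without fasted CREB3L3-/- liver 2, which holds the highest value, Spc25 was called lower. Hmmr was 2.57, 2.63, 2.42 and 2.61 in fasted CREB3L3-/- livers, against 2.80, 2.70, 2.60 and 2.64 in fasted WT livers, and Cdk1 was 3.35, 3.50, 3.42 and 3.48, against 3.54, 3.42, 3.55 and 3.85. The effect of the deletion on the diet minus that in the fast was positive and called for all 56 genes, against 10.6% of all genes (8.3% were negative and called), with a median of 3.59 and a range of 0.75 (Bub3) to 4.97 (Hmmr).

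**Figure D4:**
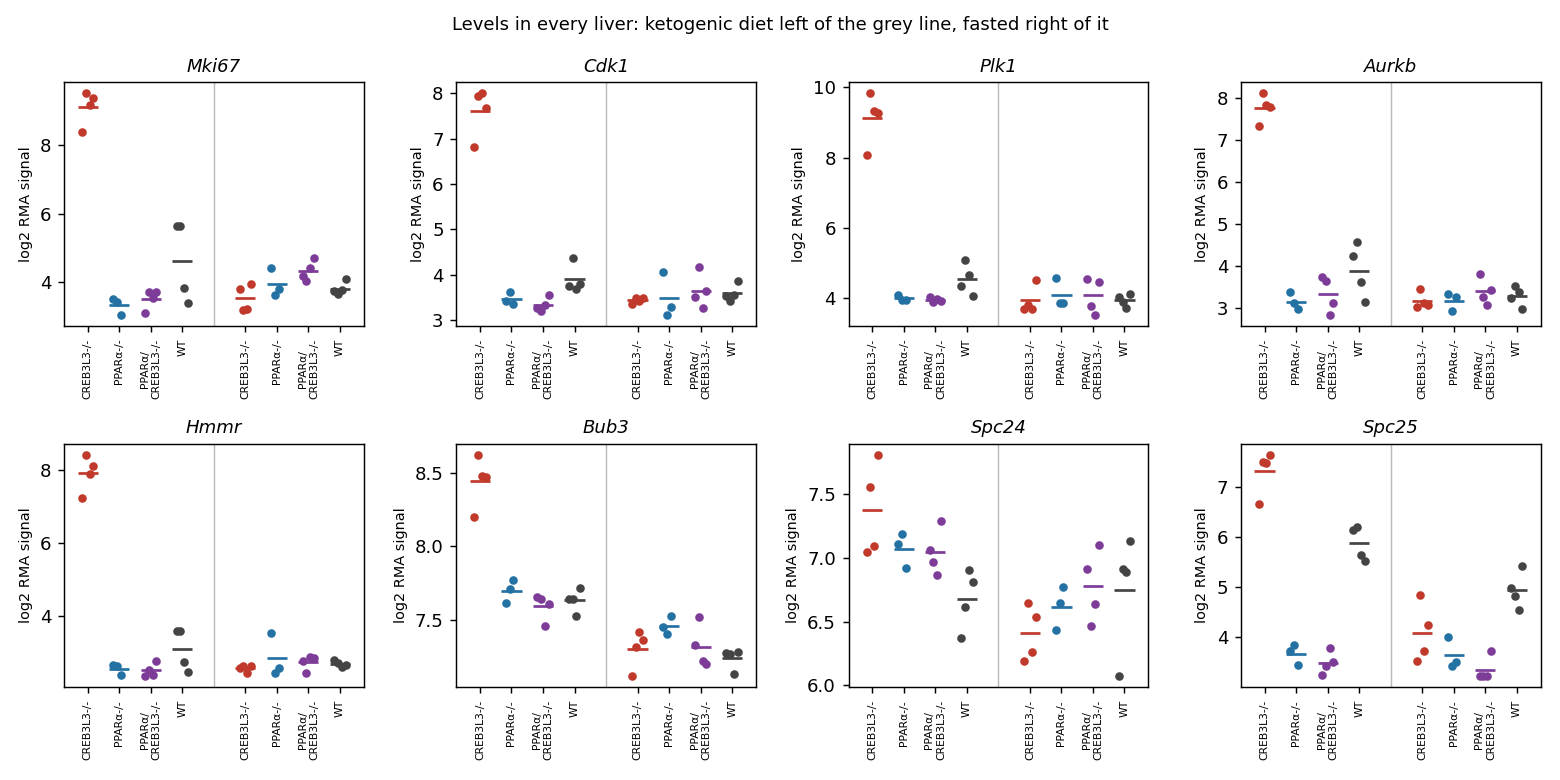
Log2 signal of 8 genes in each liver (points; lines are group means), ketogenic groups left of the grey line and fasted groups right of it. Mki67, Cdk1, Plk1, Aurkb and Hmmr are high in ketogenic CREB3L3-/- livers, Bub3 and Spc24 differ between ketogenic CREB3L3-/- and WT livers by 0.81 and 0.70, and Spc25 is low in all livers without PPARα.

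Between regimens, mitotic genes were higher in WT mice on the diet than in the fast, on a small scale and unevenly among the livers. The mean over the 56 genes was 4.23, 4.41, 3.81 and 3.65 in ketogenic WT livers 1 to 4, and 3.52 to 3.66 in fasted WT livers. The ketogenic mice were killed fed and the others fasted after chow, so diet and feeding state cannot be told apart. In ketogenic WT livers 6 genes were higher than in fasted WT livers and 0 lower, against 3.6% and 1.63% of all genes, and 54 of the 56 differences were positive with a median of 0.39. The 6 were Ccna2 (1.23), Top2a (1.21), Mad2l1 (0.81), Incenp (0.77), Smc2 (0.74) and Bub3 (0.39). The checkpoint protein gene Mad2l1 was 6.10, 6.26, 5.70 and 5.17 in ketogenic WT livers, against 4.64, 5.28, 5.43 and 4.64 in fasted WT livers. Incenp was 4.40, 3.97, 3.97 and 4.21 in ketogenic WT livers, against 3.19, 3.47, 3.27 and 3.56 in fasted WT livers. The groups overlapped for Mad2l1 and not for Incenp. Without ketogenic WT liver 1 or liver 2 there were 2 calls in each case, Bub3 and Incenp, and without fasted WT liver 1 there were 3, with Top2a added. In CREB3L3-/- mice all 56 genes were higher on the diet than in the fast, against 19.3% of all genes higher and 13% lower, with a median of 4.07.

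Mice without PPARα shared little of this. In PPARα-/- livers Mad2l1 was higher on the diet (1.29 ± 0.25) and Birc5 lower (-0.98 ± 0.23), against 5.83% and 5.54% of all genes. In combined knockout livers Mad2l1 (1.28 ± 0.21) and the kinesin gene Kif18a (0.75 ± 0.19) were higher and 0 lower, against 7.85% and 9.53%. Mad2l1 was 6.19, 5.93 and 6.15 in ketogenic PPARα-/- livers, against 4.91, 4.73 and 4.76 in fasted ones. It was 5.96, 5.95, 6.51 and 6.01 in ketogenic combined knockout livers, against 5.01, 4.81, 4.68 and 4.81 in fasted ones. Mad2l1 was thus called higher on the diet in all 4 genotypes, although the call in WT mice was lost without any of 5 of the 8 livers. In PPARα-/- mice Mad2l1 was the 1 call left without ketogenic liver 3 or fasted liver 1 or 3. It was also the 1 call left in combined knockout mice without ketogenic liver 1 or 2 or fasted liver 1 or 3.

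The ketogenic CREB3L3-/- livers differed among themselves in a common way. Liver 1 had the lowest value of its group for all 56 genes, as for 29.9% of all genes and 63.5% of the genes that rose. It lay 1.03 log2 units below the mean of livers 2 to 4 in the median gene, and 0.33 to 1.68 over all genes of the list. Liver 2 was the highest for 42 genes. Even liver 1 had 53 of the 56 genes more than 2-fold above the WT mean. Without liver 1 the count of higher genes was 56, and without any other liver of either group it was 55 or 56.

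Further mitotic genes outside the list moved with it. Of 66 such genes 58 were measured, with a median change of 1.92 in ketogenic CREB3L3-/- livers against ketogenic WT livers. Of these 54 were higher and 0 lower, against 16.7% and 11.9% of all genes. By lowest P these were led by Depdc1a (3.20), Mastl, the kinase that restrains a phosphatase in mitosis (3.62), Cdkn3 (3.68), Tacc3 of the spindle (3.22) and Sgo1, the guardian of centromeric cohesion (2.67). The genes not called were Zw10, Sapcd2, the securin gene Pttg1 (-0.26) and Wee1, which encodes the kinase that restrains Cdk1 (-0.04). In combined knockout livers against WT livers 0 of the 58 were higher and 2 lower, against 7.44% and 10.3% of all genes.

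Genes of cell cycle control, which act before mitosis, moved less uniformly. The median change of the 32 measured was 0.77 in ketogenic CREB3L3-/- livers against WT livers. Of these 18 were higher and 2 lower, against 16.7% and 11.9% of all genes. Those with the lowest P were Tfdp1, the partner of E2F factors (1.29), the transcription factor gene Mybl2 (2.89), cyclin E1 Ccne1 (2.35), the pocket protein gene Rbl1 (2.37) and E2f1 (1.82). E2f1 was 6.64, 6.88, 6.55 and 6.52 in CREB3L3-/- livers, against 5.06, 4.89, 4.53 and 4.82 in WT livers, and Mybl2 was 6.15, 7.53, 7.49 and 7.17, against 4.35, 3.55, 4.86 and 4.00. The knockout values were above all WT values in both. The pocket protein gene Rbl2 (-1.07) and Lin52 (-0.53) were lower. In combined knockout livers 3 of the 32 were higher and 7 lower than in WT livers, against 7.44% and 10.3% of all genes. The 5 with the lowest P were cyclins Ccnd2 (-1.49), Ccnd3 (-1.26) and Ccnd1 (-2.27), E2f8 (-3.54) and Cdk2 (-0.94), all lower.

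Markers of other cells moved in the same livers. In ketogenic CREB3L3-/- livers against WT livers, 7 of 14 macrophage markers were higher and 0 lower, where 16.7% of all genes were higher and 11.9% lower, and their mean level was 7.96 to 8.32 in CREB3L3-/- livers, against 6.56 to 7.41 in WT livers. Cd68 and Cd14 rose by 2.14 and 3.25, whereas the Kupffer cell marker Clec4f (-0.13) and Adgre1 (0.55) were not called. Of 12 stellate cell markers 9 were higher and 0 lower, with mean levels of 7.31 to 7.97 in CREB3L3-/- livers, against 6.25 to 6.39 in WT livers, and Acta2 rose by 3.53. Of 8 cholangiocyte markers 4 were higher and 0 lower (4.70 to 4.97 in CREB3L3-/- livers, against 3.84 to 4.02 in WT livers). Of 10 neutrophil markers 2 were higher, a share near that of all genes. Their mean level was 5.63 in CREB3L3-/- liver 3 and 3.70 to 3.97 in the other CREB3L3-/- livers, against 3.23 to 4.07 in WT livers. Of 12 T and NK cell markers 0 were called. Of 9 B and plasma cell markers 2 were lower. Sinusoidal endothelium had 3 of 10 higher and 1 lower and the erythroid list 1 of 5 higher and 1 lower. Of 11 hepatocyte markers 7 were lower (11.35 to 11.78 in CREB3L3-/- livers, against 12.23 to 12.40 in WT livers). The part of these cells in the rise of the mitotic genes was not tested.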

How the data were processed

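Expression was measured in 30 mouse livers, each on its own Affymetrix array. The authors normalized the arrays by RMA (version not given in the sources used here), and the deposited values are log2 intensities of 35556 probe sets, taken as they are. Identifiers are of the manufacturer's kind, although the methods name remapped probe sets. Of the probe sets, 21218 carry 1 symbol, 1881 several and 12457 none, and 0 columns of values were unused. Arrays give no read depth, so precision rests on the number of livers.

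A model of 8 group means was fitted to all probe sets with limma 3.58.1 in R 4.3.3, with an intensity trend, 22 residual and 3.47 prior degrees of freedom. A call needed P under 0.001 and a change above 1.2-fold. P was adjusted by Benjamini-Hochberg across the 35556 probe sets of each comparison. A difference is given with its SE. The fit was tested on simulated data. The tables were handled in the data.table package (1.17.8) and pandas 2.3.3, and figures were drawn with matplotlib 3.10.9 under Python 3.11.15.

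The members, roles and other lists were chosen with earlier results of these data known. Levels in every liver are given for role representatives and for the 8 largest and 5 smallest changes in ketogenic CREB3L3-/- livers. Up to 5 genes of every other list were taken by lowest P, and further genes were named after their values were seen, among them markers, members called in few comparisons and E2f1. Promoter sequences are from RefSeq (GRCm38.p6). Alternatives were subsets of arrays, a replicate block, array weights, other variance models, centring, quantile normalization, a filter on dim probe sets, other probe set rules and thresholds, and leaving out each array.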

Additional observations from a re-analysis of the deposited data

Results flagged for a closer look

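The effect of the CREB3L3 deletion on the ketogenic diet differed between mice without and with PPARα for 55 of the 56 genes, and between the diet and the fast for 56, each by a test of the difference in the limma fit.

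Values far from the rest of their group of 4 livers were sought for the 26 genes with levels in every liver, over 6 groups. The genes were read in the same livers, so the cases are not independent and are not set against a chance rate. In 17 of 156 cases (10.9%) the gap to the nearest liver, as a part of the range, was above Dixon's 95% limit. In ketogenic CREB3L3-/- livers, liver 1 was the lowest in 7 of these cases: Birc5 (6.36, others from 7.16), Spc25 (6.66, others from 7.48), Ncapg (6.03, others from 6.84), Smc4 (8.15, others from 8.87), Kif4 (5.90, others from 7.11), Kif11 (7.52, others from 8.66) and Kif2c (7.24, others from 8.36). Its mean over the 56 genes took 0.804 of the range and stayed below the limit. In fasted combined knockout livers, liver 4 was the highest for Cenpa (4.88), Spc25 (3.73) and Top2a (4.14). The other cases were Plk1 in fasted CREB3L3-/- liver 4 (4.52, highest), Cep55 in ketogenic combined knockout liver 2 (2.74, highest) and Cdk1 in ketogenic WT liver 2 (4.37, highest). In fasted WT livers they were Bub3 in liver 3 (7.13, lowest), Kif11 (3.60) and Kif2c (3.12) in liver 2, both lowest, and Anln in liver 3 (3.45, highest).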

How the results depend on the processing

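The rise in ketogenic CREB3L3-/- livers against WT livers held for 54 to 56 genes under all alternatives except the filter on dim probe sets, which leaves 19 of the 56 genes; of these 18 were called, as they were for combined knockout against CREB3L3-/- livers and for the interaction, and 19 for CREB3L3-/- livers on the diet against the fast and for the deletion's effect on the diet minus the fast. No change of a named gene turned direction. Spc24 passed P under 0.001 in the arrays of 1 regimen alone (0.70), with the replicate block (0.70), array weights (0.81), the mean of a gene's probe sets (0.70), probe sets of 1 symbol (0.70) and without CREB3L3-/- liver 1 (0.81) or 3 (0.80).

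The small counts moved. For PPARα-/- against WT livers on the diet (3 genes), the arrays of 1 regimen gave 1, array weights 7 and an adjusted p under 0.05 gave 9. For combined knockout against WT livers on the diet (5 genes), the arrays of 1 regimen gave 1, the compared groups alone 2, array weights 9, the mean of a gene's probe sets 3, an adjusted p under 0.05 gave 15 (1 of them higher) and a fold beyond 2 gave 3. For WT on the diet against the fast (6 genes), the compared groups alone and a fold beyond 2 each gave 2. For PPARα-/- on the diet against the fast (2 genes), the compared groups alone, the filter on dim probe sets and a fold beyond 2 each gave 1, and median centring, quantile normalization and an adjusted p under 0.05 each gave 4. For combined knockout livers on the diet against the fast (2 genes), the dim filter and a fold beyond 2 each gave 1, median centring 4, array weights 5 and an adjusted p under 0.05 gave 6. The shares of all genes were not counted under these settings or with 1 liver left out, so these counts have no background beside them. The cause of these moves was not tested.

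Leaving out 1 liver gave 55 to 56 genes for CREB3L3-/- against WT livers on the diet, 1 to 7 for PPARα-/- and 1 to 11 for combined knockout livers against WT livers, 55 for combined knockout against CREB3L3-/- livers, 0 for combined knockout against PPARα-/- livers and 55 for the interaction. In the fast it gave 0 to 1 for CREB3L3-/- and 1 for PPARα-/- and for combined knockout livers. Between regimens it gave 2 to 9 in WT, 56 in CREB3L3-/-, 1 to 3 in PPARα-/- and 1 to 2 in combined knockout mice, and 55 to 56 for the deletion's effect on the diet minus the fast.

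The replicate numbers do not pair the livers: deviations of livers with the same number correlated at a median of 0.01 (-0.11 to 0.12), and 9 of 30 arrays correlated best with one of their own number. With the replicate block, the calls numbered 56 in CREB3L3-/- against WT livers on the diet, and for combined knockout livers on the diet against the fast 1; the other counts stayed within 1.5 times.

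Most WT signals are below the array medians, so their fold changes rest on dim denominators.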
